A study of Mus musculus with 6 samples.

Results

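The FGF ligands Fgf2, Fgf4, Fgf5, Fgf7, Fgf10 and Fgf17 and the FGF receptors Fgfr1, Fgfr2, Fgfr3 and Fgfr4 were followed on mouse genome expression arrays. Members were all probe sets annotated with exactly 1 of these 10 gene symbols, which gave 24 of the 45037 probe sets tested, 11 for the ligands and 13 for the receptors. The study labels 3 arrays as CD98hc KO, from fibroblasts derived from mouse embryonic stem cells in which CD98hc was deleted, and 3 as WT, from fibroblasts of the same origin with CD98hc present, with replicate numbers 1, 3 and 5 in each group. Both cell types were grown in the same supplemented DMEM with β-mercaptoethanol, which CD98hc KO cells need to survive. Values are log2 expression per probe set, made by the authors with RMA (Robust Multichip Average), and a difference of 1 on this scale is 2-fold. Neither the number of independent cultures behind the 3 arrays of a group nor the number of cell clones could be taken from the sources used here. The p-values therefore reflect no more than how these arrays vary, and that variation may be technical.

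The arrays went against their labels in part. Slc3a2, the gene of CD98hc, measured 11.65, 11.57 and 11.54 on the arrays labelled CD98hc KO, against 10.64, 10.67 and 10.51 on those labelled WT (difference 0.98 with a standard error, SE, of 0.075). Its single probe set has an unknown place relative to the deleted part and so does not check the labels. Of 13 measured fibroblast markers 9 were lower and 0 higher on the KO-labelled arrays, where their signals, summed on the linear scale, were 457 to 542, against 12941 to 21934 under the WT label. The fibroblast markers Lum, Dcn, Thy1 and Pdgfra stayed at log2 values between 4.09 and 5.80 under both labels. Of 13 markers on a list for naive pluripotent stem cells 12 were higher and 0 lower (summed signal 18954 to 24608 under the KO label, against 957 to 1078 under the WT label). That list includes Pou5f1 and Sox2, which primed cells also express. Its marker Dppa3 differed little, with a mean of 5.13 under the KO label and 4.88 under the WT label. Of 6 markers of primed pluripotent cells 5 were higher and 0 lower (2391 to 6546 under the KO label, against 213 to 278 under the WT label). Epithelial markers ran the same way (7 of 8 higher, 0 lower, summed signal 3030 to 4642 under the KO label, against 287 to 312 under the WT label). The part of these marker differences in the FGF results was not tested. In bulk RNA, more cells of a type and more RNA per cell cannot be told apart. Directions below therefore compare arrays labelled KO with arrays labelled WT.

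FGFs are secreted proteins that bind receptor tyrosine kinases together with heparan sulphate on the cell surface. The activated receptors signal through adaptor proteins to RAS and the kinase ERK, which switches on response genes and a set of inhibitors that dampen the pathway. In mouse embryonic stem cells FGF4 made by the cells themselves acts through ERK to prepare them for differentiation, while FGF5 marks the primed epiblast that follows the naive state. FGF7 and FGF10 are typical products of mesenchymal cells that act on neighbouring epithelia through a splice form of FGFR2.

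On the KO-labelled arrays Fgf4, Fgf5 and Fgfr2 were higher and Fgf7 was lower than on the WT-labelled arrays, and the other 6 genes had no called probe set. A probe set was called at an adjusted p under 0.05 from limma and a change over 2-fold. Of the 24 member probe sets 7 were called higher and 1 lower (33.3%), where 13.8% of all probe sets tested were called, 6.35% higher and 7.43% lower. Fgf4 alone supplied 4 of the 7, and probe sets of 1 gene read the same RNA. With each gene represented by its most variable probe set, 4 of the 10 genes were called, against 19.3% of 17097 genes. The groups did not overlap for 16 of the 24 probe sets (66.7%), where this held for 45.9% of all probe sets tested. At an adjusted p under 0.05 alone, with no fold limit, 13 of the 24 passed, where 32.7% of all probe sets did. Ligands supplied 6 called of 11 probe sets and receptors 2 of 13.

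**Figure D1:**
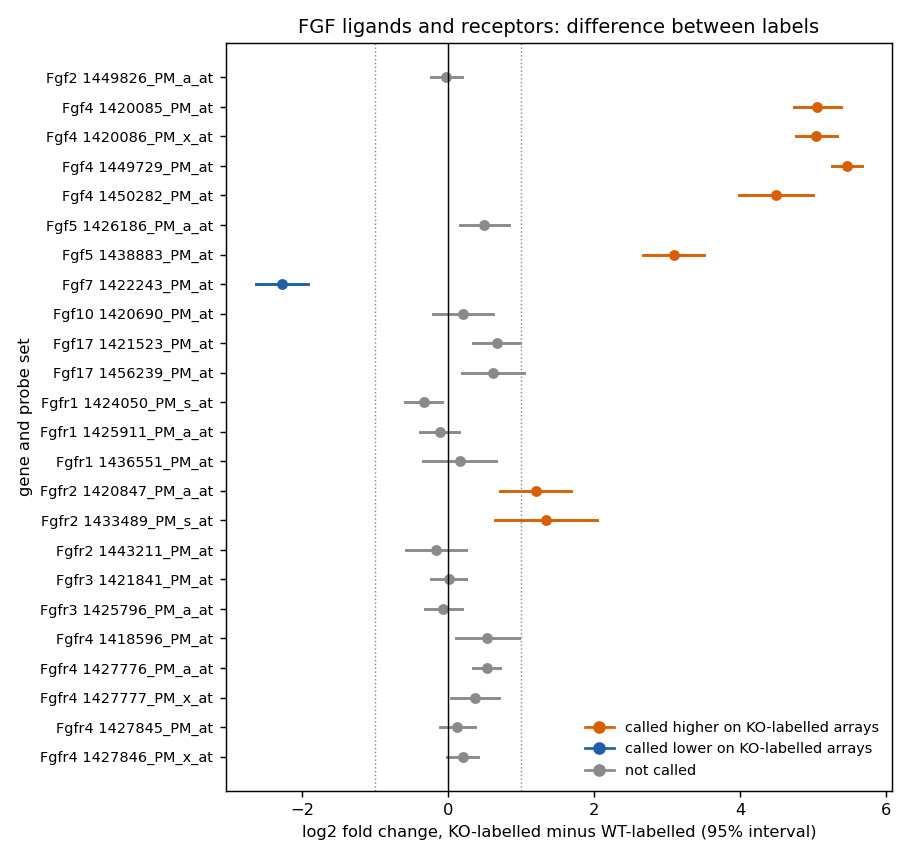
The log2 fold change of each of the 24 probe sets (points, KO-labelled minus WT-labelled) with its 95% interval from limma (lines), and dotted lines at a 2-fold change. The 4 probe sets of Fgf4 lie furthest to the right, Fgf7 is the only one called lower, and the Fgfr3 intervals span 0.

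Fgf4, the FGF that embryonic stem cells secrete, had the largest difference of the 10 genes. Its probe set 1449729_PM_at had log2 values of 9.70, 9.66 and 9.59 on KO-labelled replicates 1, 3 and 5, against 4.32, 4.17 and 4.07 on WT-labelled replicates 1, 3 and 5. All 3 KO-labelled values lay more than 5 log2 units above all 3 WT-labelled values. The log2 fold change was 5.46 (SE 0.086, limma adjusted p 9.8e-07), a 44.1-fold difference. The other 3 Fgf4 probe sets ran the same way, with log2 fold changes of 5.06 for 1420085_PM_at (SE 0.13), 5.04 for 1420086_PM_x_at (SE 0.12) and 4.49 for 1450282_PM_at (SE 0.21, limma adjusted p 2.7e-05). The first 2 of these and 1449729_PM_at carry the same source accession in the platform annotation and 1450282_PM_at another. No detection calls were used. The 23 nonspecific control probe sets of the arrays had a median log2 value of 4.23, but their means ran from 3.28 to 8.32. Comparisons with these controls use their median, which is not a sharp floor. Fgf4 under the WT label lay near or somewhat above that median, and its true level there is not known.

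Fgf5, a ligand of the primed epiblast that also ends the growth phase of hair in mice, was higher by its probe set 1438883_PM_at. It had log2 values of 7.03, 7.48 and 6.79 on the KO-labelled arrays, against 4.10, 3.93 and 4.01 on the WT-labelled arrays. The groups lay apart, with a log2 fold change of 3.09 (SE 0.17, limma adjusted p 5.3e-05). The WT-labelled values were below the median of the nonspecific probe sets, so this difference may be understated. The second Fgf5 probe set, 1426186_PM_a_at, gave 6.02, 6.03 and 5.57 on the KO-labelled arrays, against 5.34, 5.50 and 5.29 on the WT-labelled arrays. Its log2 fold change of 0.50 (95% interval 0.15 to 0.84, limma adjusted p 0.038) had the same sign but fell short of 2-fold. Averaged over both probe sets, Fgf5 had a log2 fold change of 1.79 and was called higher.

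Fgf7, the keratinocyte growth factor of mesenchymal cells, was the only member called lower. Its probe set 1422243_PM_at had log2 values of 4.69, 4.90 and 4.66 on the KO-labelled arrays, against 7.33, 6.86 and 6.88 on the WT-labelled arrays. The groups did not overlap, and the KO-labelled values were near the median of the nonspecific probe sets. The log2 fold change was −2.28 (SE 0.15, limma adjusted p 9.2e-05), or 4.85-fold lower. Fgf10, which belongs to the same ligand subfamily, had 4.77, 4.86 and 5.40 under the KO label, against 4.83, 4.75 and 4.84 under the WT label. These values overlapped, with a log2 fold change of 0.20 (95% interval −0.21 to 0.61, limma adjusted p 0.45).

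Fgf2, the basic FGF, had log2 values of 4.33, 4.10 and 4.11 on the KO-labelled arrays, against 4.28, 4.13 and 4.20 on the WT-labelled arrays. Under both labels its single probe set was at the level of the nonspecific controls, and the log2 fold change of −0.02 had a 95% interval from −0.24 to 0.19. Fgf17, of the FGF8 subfamily, had 5.93, 5.58 and 5.96 by 1421523_PM_at on the KO-labelled arrays, against 5.17, 5.01 and 5.31 on the WT-labelled arrays. The groups lay apart, but the difference of 0.66 (SE 0.13, limma adjusted p 0.0096) was under 2-fold. The other Fgf17 probe set, 1456239_PM_at, gave 0.61 (SE 0.18, limma adjusted p 0.04). Its means were 5.02 under the KO label and 4.41 under the WT label, the latter near the median of the nonspecific controls.

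**Figure D2:**
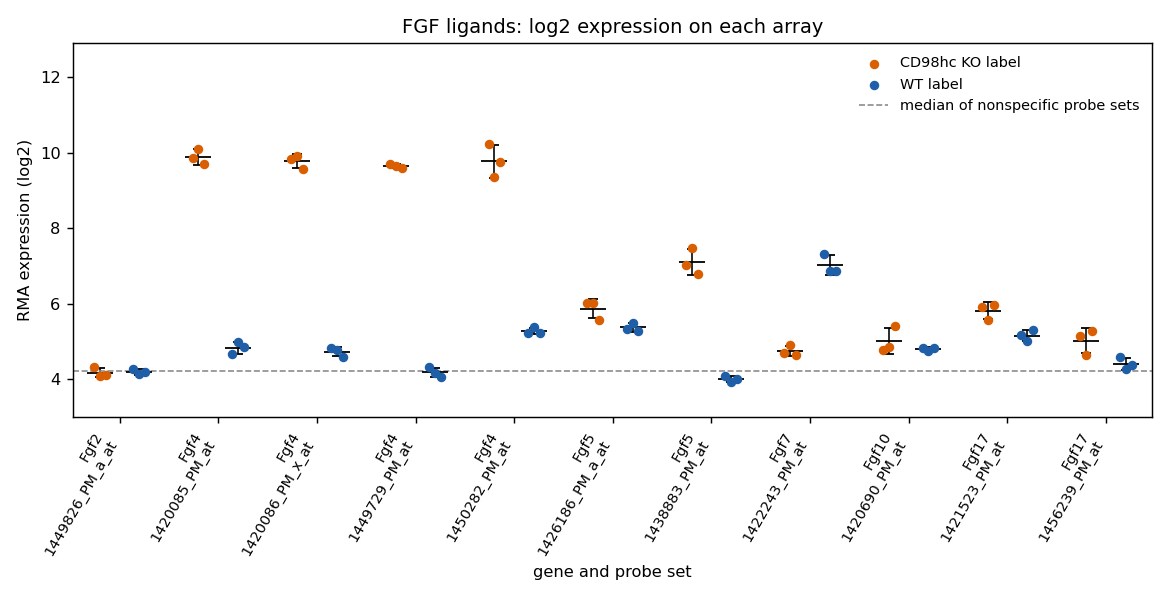
RMA log2 expression of the 11 ligand probe sets by array, CD98hc KO-labelled in orange on the left of each pair and WT-labelled in blue on the right, black bars for mean ± SD and the median of the nonspecific probe sets dashed (4.23). All 4 Fgf4 probe sets are above 9 under the KO label and below 6 under the WT label, and Fgf7 runs the other way.

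The start regions of the 3 ligands with a called probe set are shown as the ligands with the largest differences. Each window holds 250 bases before and 50 after the RefSeq gene start in GRCm38.p6, all on the + strand, with Fgf4 at chr7:144861136-144861435, Fgf5 at chr5:98253934-98254233 and Fgf7 at chr2:126034408-126034707. Capitals mark the GC box GGGCGG on either strand and the TATA-like words TATAAA and TATATA.
Fgf4: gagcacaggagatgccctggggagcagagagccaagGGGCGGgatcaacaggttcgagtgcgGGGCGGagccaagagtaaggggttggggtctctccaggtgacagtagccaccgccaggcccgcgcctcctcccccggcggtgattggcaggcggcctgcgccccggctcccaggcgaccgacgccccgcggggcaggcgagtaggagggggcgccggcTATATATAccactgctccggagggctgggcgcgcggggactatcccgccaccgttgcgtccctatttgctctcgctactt
Fgf5: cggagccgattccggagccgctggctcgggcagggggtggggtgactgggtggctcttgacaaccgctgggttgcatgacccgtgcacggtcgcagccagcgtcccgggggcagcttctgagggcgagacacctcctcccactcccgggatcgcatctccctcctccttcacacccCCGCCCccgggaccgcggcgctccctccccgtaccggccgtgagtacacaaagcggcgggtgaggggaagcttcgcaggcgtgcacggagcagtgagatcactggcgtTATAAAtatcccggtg
Fgf7: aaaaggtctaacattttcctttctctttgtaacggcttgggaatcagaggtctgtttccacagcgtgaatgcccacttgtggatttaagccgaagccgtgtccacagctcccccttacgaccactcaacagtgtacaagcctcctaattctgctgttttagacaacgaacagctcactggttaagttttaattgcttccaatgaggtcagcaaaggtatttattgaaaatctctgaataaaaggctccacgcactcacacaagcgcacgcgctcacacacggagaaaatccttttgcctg
Fgf4 held GGGCGG at 2 places and the word TATATA at 2 overlapping places that begin 30 and 28 bases before the start, and Fgf5 held GGGCGG once, on the other strand, and TATAAA once, 34 bases after the start. Fgf7 held none of these words. Of all 32851 RefSeq windows of this length 35.7% held GGGCGG, 13.6% TATAAA and 5.67% TATATA. The windows of Fgf4 and Fgf5 had 28 and 29 CpG dinucleotides, against 11 in Fgf7 and a median of 7 over all windows. The window of Fgfr2, which was also called higher, held 4 CpG and none of the words. Those of the uncalled Fgf2 (24 CpG), Fgfr3 (26 and 30), Fgfr4 (20) and Fgf10 (10) all held GGGCGG. A link between these features and the direction of change was not tested. Windows were matched for 8 of the 10 genes, without Fgf17 and Fgfr1, and the octamer ATGCAAAT and the AP-1 word TGACTCA were in none of the 9 windows of these 8 genes, nor on their other strand, where 1.74% and 5.2% of all windows held them. A match of letters is a description, not a binding site.

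Fgfr2, the receptor whose epithelial splice form binds FGF7 and FGF10, was the only receptor with called probe sets. Its probe set 1420847_PM_a_at had log2 values of 7.87, 8.16 and 7.36 on the KO-labelled arrays, against 6.66, 6.66 and 6.48 on the WT-labelled arrays. The groups lay apart, with a log2 fold change of 1.20 (SE 0.20, limma adjusted p 0.0046). By 1433489_PM_s_at the values were 7.25, 7.77 and 6.71 on the KO-labelled arrays, against 5.98, 6.18 and 5.54 on the WT-labelled arrays, a log2 fold change of 1.34 (SE 0.29, limma adjusted p 0.013). The third probe set, 1443211_PM_at, lay near the nonspecific controls with 4.21, 4.44 and 4.17 on the KO-labelled arrays, against 4.28, 4.81 and 4.24 on the WT-labelled arrays, and its difference of −0.17 had a 95% interval from −0.58 to 0.24. Averaged over its 3 probe sets, Fgfr2 had a log2 fold change of 0.79 (limma adjusted p 0.02) and was not called.

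Fgfr1, the main FGF receptor of embryonic stem cells and of fibroblasts, was called by none of its 3 probe sets. Its probe set 1425911_PM_a_at had log2 values of 11.19, 11.15 and 10.98 on the KO-labelled arrays, against 11.12, 11.13 and 11.43 on the WT-labelled arrays, which overlap. The log2 fold change of −0.12 had a 95% interval from −0.39 to 0.15, so a 2-fold difference in either direction lies outside it. By 1424050_PM_s_at the KO-labelled arrays had 8.54, 8.67 and 8.30, against 8.84, 8.83 and 8.86 on the WT-labelled arrays. That difference of −0.34 (limma adjusted p 0.049) was under 2-fold and separated the groups. By 1436551_PM_at the log2 fold change was 0.16 (95% interval −0.35 to 0.66).

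Fgfr3, a receptor known for its role in growth cartilage, had 6.73, 7.02 and 6.80 by 1421841_PM_at on the KO-labelled arrays, against 6.86, 6.92 and 6.75 on the WT-labelled arrays. The values overlapped, with a log2 fold change of 0.01 (95% interval −0.24 to 0.25), and by 1425796_PM_a_at it was −0.07 (95% interval −0.32 to 0.18). Both intervals leave out a 2-fold difference.

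Fgfr4, the receptor that in liver restrains bile acid synthesis, had 5 probe sets with log2 fold changes from 0.13 to 0.53, none of them called. By 1427776_PM_a_at it had 4.55, 4.63 and 4.45 on the KO-labelled arrays, against 4.07, 4.0 and 3.97 on the WT-labelled arrays. This difference of 0.52 (SE 0.075, limma adjusted p 0.0024) separated the groups at a level near the nonspecific controls. By 1418596_PM_at it had 5.51, 5.12 and 4.81 on the KO-labelled arrays, against 4.75, 4.59 and 4.50 on the WT-labelled arrays (log2 fold change 0.53, SE 0.18, limma adjusted p 0.066). The other 3 probe sets had adjusted p-values of 0.094, 0.15 and 0.41 from limma.

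**Figure D3:**
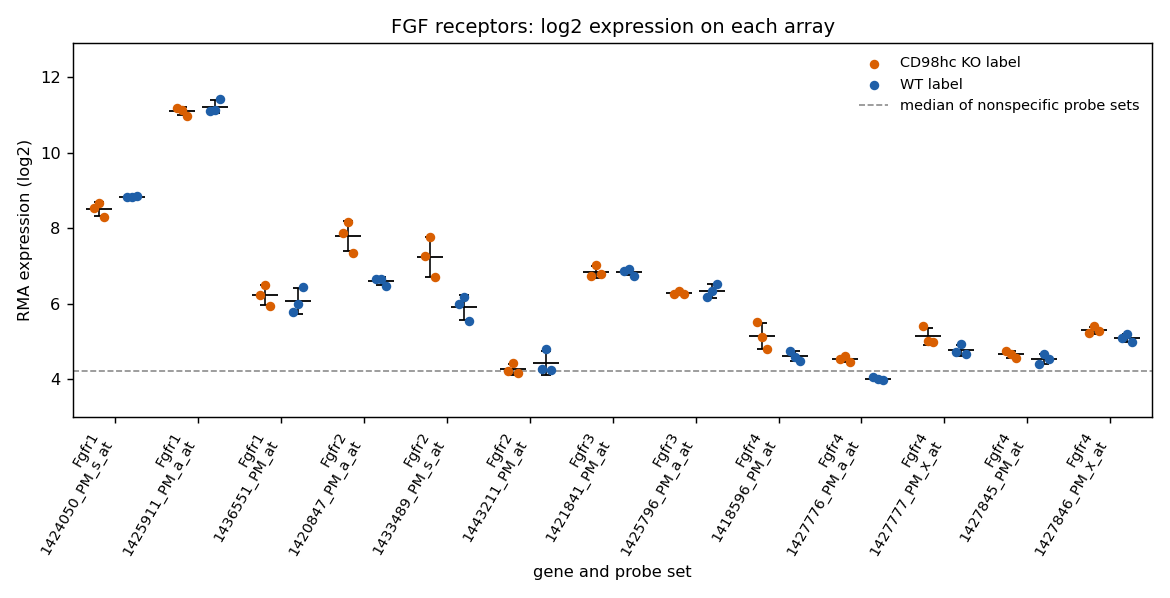
RMA log2 expression of the 13 receptor probe sets by array, CD98hc KO-labelled in orange on the left of each pair and WT-labelled in blue on the right, black bars for mean ± SD and the median of the nonspecific probe sets dashed (4.23). The labels overlap for 4 of the 5 Fgfr1 and Fgfr3 probe sets, 2 of 3 Fgfr2 probe sets are higher under the KO label, and Fgfr4 lies between 3.97 and 5.51.

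The 7 FGF probe sets called higher had a median range of 0.69 log2 units over the 3 KO-labelled arrays. Over all probe sets called higher this median was 0.50. Fgf4 by 1449729_PM_at varied less, from 9.59 to 9.70. For 5 of the 7 member probe sets called higher, replicate 3 had the highest value and replicate 5 the lowest, where this order held for 18.6% of all probe sets called higher. Replicate 3 was the highest KO-labelled array for 32.1% of all probe sets called higher and for 40.7% of all tested. The order was not set in advance, so these shares are a description and not a test. The 5 were 1420085_PM_at and 1420086_PM_x_at of Fgf4, 1438883_PM_at of Fgf5 and the called pair of Fgfr2. Probe sets of 1 gene read the same RNA, so these are not 5 independent observations. Over all 24 member probe sets, called or not, the order held for 12 (50%), where it held for 19.1% of all probe sets tested. Fgf5 deviated from its KO mean by 0.38 on replicate 3 and −0.31 on replicate 5, and Fgfr2 by 1433489_PM_s_at deviated by 0.52 and −0.53. Both called Fgfr2 probe sets also had their highest value on replicate 3 and their lowest on replicate 5 of the WT-labelled arrays, with 6.18 and 5.54 by 1433489_PM_s_at, although by 1420847_PM_a_at replicates 1 and 3 were both at 6.66. The primed pluripotency factors Otx2 (1.10 and −1.07), Pou3f1 (1.03 and −0.72) and Dnmt3b (0.73 and −0.64) had the same order, while the other called primed markers, Lef1 (0.63 on replicate 1, 0.50 on replicate 3) and Zic2 (0.53 and 0.51), were highest on replicate 1 and also lowest on replicate 5. The order also held for 3 of the 7 epithelial markers called higher (42.9%). Of 12 markers of the naive list called higher, 8 had their highest value on replicate 5 instead (66.7%). This held for 26.4% of all probe sets called higher. Among the 8 was Tfcp2l1, which deviated from its KO mean by 1.34 on replicate 5 and −1.31 on replicate 3. The 2 markers of that list that were highest on replicate 3 were Pou5f1 and Sox2, which are not particular to the naive state. For Fgf4 the order was not shared by all probe sets, since 1450282_PM_at was highest on replicate 1 (10.22) and lowest on replicate 3 (9.35). The Fgf4 probe set with the largest difference, 1449729_PM_at, was also highest on replicate 1 (9.70), with 9.66 on replicate 3 and 9.59 on replicate 5. The 18 probe sets of the hybridisation controls, which are added to each hybridisation, were lower on both replicate 3 arrays, by 1.21 on average, and their part in this order was not tested.

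**Figure D4:**
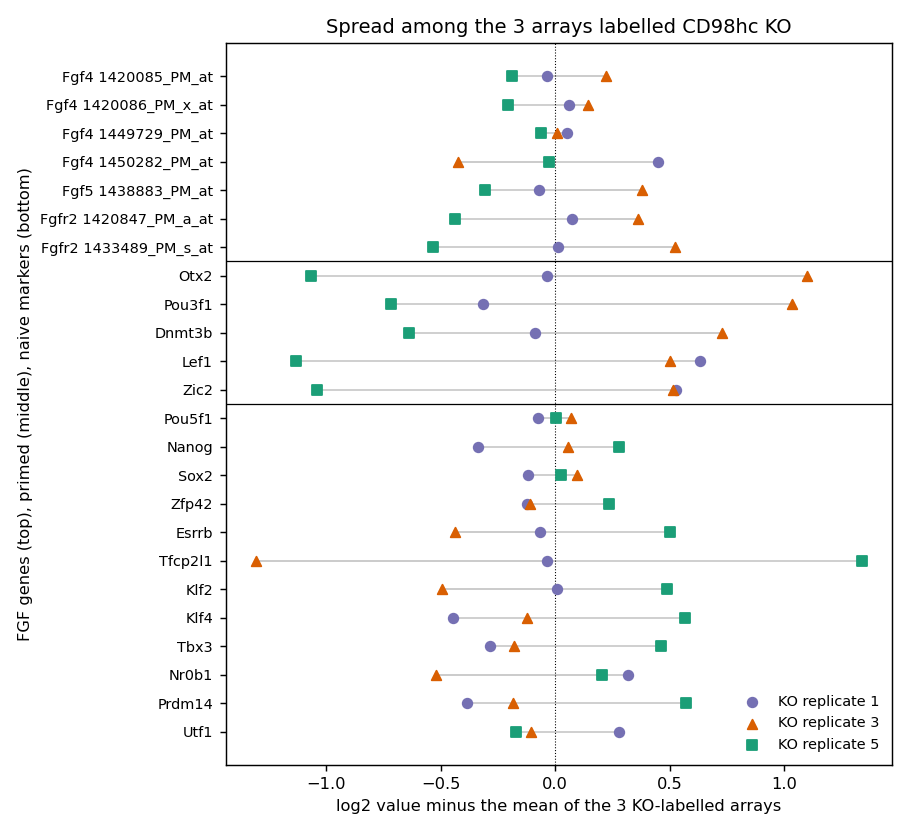
The log2 value on each of the 3 KO-labelled arrays minus their mean, for the 7 FGF probe sets called higher (top), 5 markers of the primed list (middle) and 12 of the naive list (bottom) called higher. Replicate 3 (triangles) lies to the right and replicate 5 (squares) to the left for Fgf5, Fgfr2, Otx2, Pou3f1 and Dnmt3b, while replicate 5 is furthest right for 8 naive markers.

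Genes that act beside these ligands and receptors were then counted, each by its most variable probe set. Over all genes 9.24% were called higher and 10.1% lower, and their median log2 fold change was 0.02. Of 12 other secreted FGFs 2 were higher and 0 lower, with a median of 0.11. Fgf15, the mouse counterpart of human FGF19, had 7.09, 7.21 and 7.27 on the KO-labelled arrays, against 4.16, 4.12 and 4.29 on the WT-labelled arrays, a log2 fold change of 3.0 (SE 0.082, limma adjusted p 3.9e-06). The WT-labelled values were at the level of the nonspecific controls, so this difference too may be understated. Fgf18, which acts in bone and lung, had a log2 fold change of 1.37 (SE 0.27, limma adjusted p 0.0089), with 6.55, 5.49 and 6.38 under the KO label, against 4.74, 4.72 and 4.84 under the WT label. Among the 4 FGF homologous factors, which stay inside the cell, Fgf13 was higher by 1.92 (SE 0.30, limma adjusted p 0.0035). Fgf8, the founding member of the subfamily that holds Fgf17, had a log2 fold change of 0.17 (limma adjusted p 0.25).

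Feedback inhibitors of FGF signalling were mostly higher where they passed the test. Of 12 measured inhibitors 5 were higher and 1 lower, with a median log2 fold change of 0.63. Spry4, a Sprouty protein that blocks the path from the receptor to RAS, had 10.59, 10.68 and 10.94 on the KO-labelled arrays, against 6.02, 5.87 and 5.87 on the WT-labelled arrays. Its log2 fold change was 4.82 (SE 0.11, limma adjusted p 2.5e-06). Spry2 and Spry1 had log2 fold changes of 2.80 and 2.26, and Il17rd, a membrane inhibitor of FGF receptors also known as Sef, had 2.20. The MAP kinase phosphatase gene Dusp4 rose by 2.05 (SE 0.45, limma adjusted p 0.014). Dusp6, the phosphatase most specific for ERK, had 9.30, 10.39 and 9.83 on the KO-labelled arrays, against 9.44, 9.92 and 8.84 on the WT-labelled arrays, which overlapped (log2 fold change 0.44, 95% interval −0.42 to 1.30). Nf1, which switches RAS off, was the inhibitor called lower (−1.76, SE 0.15, limma adjusted p 0.00027).

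Transcription factors that respond to FGF and ERK moved in both directions. Of 11 measured, 3 were higher and 5 lower, and their median was −1.07 in log2 fold change. The ETS factors Etv5 and Etv1, classic FGF response genes, rose by 2.59 (SE 0.13, limma adjusted p 3.4e-05) and 2.06 (SE 0.32, limma adjusted p 0.0034), while Etv4 of the same subfamily had −0.70 (limma adjusted p 0.15). Etv5 had 10.87, 10.89 and 10.98 on the KO-labelled arrays, against 8.45, 8.48 and 8.04 on the WT-labelled arrays. The AP-1 genes Fosl1 (−5.05, SE 0.26) and Jun (−3.47, SE 0.35) and the immediate early genes Ier3 (−3.17, SE 0.25) and Egr1 (−2.59, SE 0.50) were lower, as was the AP-1 gene Junb (−1.07). Ier2, another immediate early gene, was higher by 1.03.

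Both measured enzymes that remove sulphate from heparan sulphate at the cell surface were higher, and the called enzymes that build it were lower. The 5 enzymes not called ran in both directions. Log2 fold changes were 0.70 for Hs6st2 (limma adjusted p 0.011), 1.39 for Hs3st3b1 (limma adjusted p 0.08) and 0.25 for Hs6st1 (limma adjusted p 0.64). They were −0.78 for Glce (limma adjusted p 0.023) and −0.59 for Ext1 (limma adjusted p 0.19). Hs6st2 had low means, 4.45 under the KO label and 3.75 under the WT label. Sulf2 had 10.27, 10.29 and 10.51 on the KO-labelled arrays, against 5.24, 5.47 and 5.02 on the WT-labelled arrays, a log2 fold change of 5.11 (SE 0.13, limma adjusted p 3.4e-06). By its other probe set Sulf2 was also called higher, but by 1.86, with means of 11.12 under the KO label and 9.26 under the WT label. Sulf1, the other extracellular sulphatase, had 10.36, 10.44 and 9.68 under the KO label, against 4.87, 4.48 and 5.76 under the WT label, a log2 fold change of 5.12 (SE 0.36, limma adjusted p 0.00013). The other Sulf1 probe sets gave 2.57 (called higher) and 0.44 (not called), so the size of both changes depends on the probe set. Of 11 measured enzymes, with a median log2 fold change of −0.59, 2 were higher, both of them these sulphatases, and 4 were lower, namely the chain-building genes Ext2 (−1.14) and Extl3 (−1.57), the N-sulphotransferase Ndst2 (−1.58) and the 2-O-sulphotransferase Hs2st1 (−1.07). Of 18 co-receptors and binding proteins 2 were higher and 5 lower (median 0.02). The heparan sulphate proteoglycan Gpc4 (3.94, SE 0.23) and the adhesion protein Flrt3 (1.43, SE 0.18) were higher, while the proteoglycans Sdc2 (−4.07), Sdc4 (−2.95) and Gpc1 (−2.38), Flrt2 (−3.87) and the hyaluronan receptor Cd44 (−7.01) were lower. Flrt2 (mean 4.10) and Cd44 (mean 4.21) lay at the nonspecific controls under the KO label by these probe sets, so their differences may be understated. Other probe sets of Flrt3 (0.49), of Cd44 (−0.86) and of Hs2st1 (−0.67 and −0.98) were not called. Kl and Klb, the co-receptors of the endocrine FGFs, had log2 fold changes of 0.01 and −0.04 (limma adjusted p 0.96 and 0.84).

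Inside the cell the relay genes moved in both directions. Of 11 receptor adaptors (median −0.25) 1 was higher (Gab1, 1.22, limma adjusted p 0.043) and 1 lower (Sos2, −1.27, limma adjusted p 0.016). Judged by significance whatever the size of the change, 1 was higher and 4 were lower. Besides Sos2 these were Ptpn11 (−0.997, limma adjusted p 0.00024), Crk (−0.95, limma adjusted p 0.0021) and Grb2 (−0.28, limma adjusted p 0.045). Of 8 genes of the RAS and ERK cascade 2 were higher and 1 lower (median −0.11). Eras, a RAS protein of embryonic stem cells, had 10.95, 10.95 and 10.86 on the KO-labelled arrays, against 4.15, 3.87 and 4.28 on the WT-labelled arrays, a log2 fold change of 6.82 (SE 0.11, limma adjusted p 1.1e-06), which may be understated because the WT-labelled values were near the nonspecific controls. The kinase gene Braf was higher by 1.49 and the ERK substrate kinase Rps6ka3 lower, at −1.99. Of 6 regulators of FGF receptor splicing (median 0.20) 2 were higher and 1 lower. Both Esrp1 (1.31, SE 0.30, limma adjusted p 0.016) and Esrp2 (1.13, SE 0.12, limma adjusted p 0.00059), which promote the epithelial splice form of Fgfr2, were higher. Tia1 was lower by its most variable probe set (−1.50), while its other 5 probe sets were not called. The Fgfr2 probe sets do not tell the splice forms apart here, since the place of their probes was not known.

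**Figure D5:**
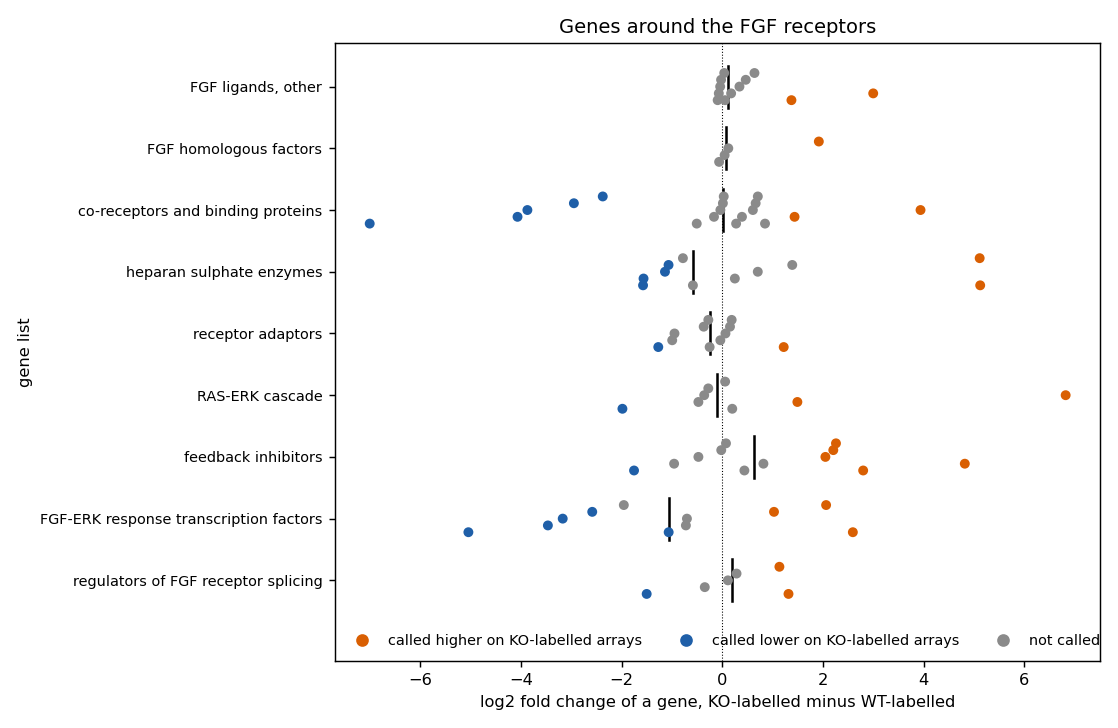
The log2 fold change (KO-labelled minus WT-labelled) of each measured gene of 9 lists around the FGF receptors, coloured by its call, with a black bar at the median of the list. Sulf1, Sulf2, Spry4 and Eras lie furthest right of 0 in their lists, and Cd44 and Fosl1 furthest left.

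The 3 genes whose values ran most like Fgf4 (1449729_PM_at) over the 6 arrays were Tlcd2, Chn1 and Nsd1, each with Pearson's r above 0.99, and those most like Fgf7 were Hoxd13, Fam107b and Itgb1. With 6 arrays in 2 groups that lie far apart such values are common, and 399 of 15424 genes had r above 0.99 with Fgf4 and 155 with Fgf7.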

How the data were processed

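RNA of cells labelled CD98hc KO or WT was hybridised to Affymetrix mouse genome arrays, 3 per label. The deposited values are log2 expression, which the authors obtained with RMA for every probe set (background correction, normalisation and summary; version not given in the sources used here). Probe sets were named by the platform's annotation. Of 45141 probe sets, 104 array controls were left out, 28898 had 1 symbol, 551 had several and named no gene, and 15692 were unnamed here.

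All 45037 remaining probe sets entered 1 linear model of the label in limma 3.58.1 (lmFit, eBayes; R 4.3.3), and p-values were adjusted over all of them by the method of Benjamini and Hochberg. Fold changes are KO-labelled over WT-labelled. The scan batch that the study's model used as covariate was not known here, so the model had none. The fit was tested on simulated data. With 3 arrays a label, which limits precision, the smallest two-sided p of an exact permutation test would be 0.1. Pearson's correlation between arrays was 0.991 to 0.994 within and 0.911 to 0.92 between labels.

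The members and gene lists were chosen with earlier results of these data known. Genes named from a list were the up to 3 called ones with the largest changes, and others, named after their values were seen, were added for their role. Some genes of the lists were not analysed here. Promoter windows are from RefSeq (GRCm38.p6). Alternatives covered the replicate block, a covariate for replicate 3, replicates 1 and 5 alone, quantile normalisation or centring, dim probe sets left out, another variance model, the adjustment, the mean over probe sets, the fold limit and each array left out. Figures were drawn with matplotlib 3.10.9.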

Additional observations from a re-analysis of the deposited data

How the results depend on the processing

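The 8 called FGF probe sets kept their direction and their call in 65 of 67 values under the alternatives that kept all arrays or replicates 1 and 5, and in 48 of 48 values with 1 array left out. The replicate block, the replicate 3 covariate, the dim filter, the other variance model and the adjustment over genes leave each difference unchanged. Under these only the call could move, not the direction. The 2 exceptions were the Fgfr2 probe sets under the mean of the probe sets of the gene (0.79). Under that mean Fgf5 was still called, at 1.79 against 3.09 for 1438883_PM_at alone, and took its uncalled probe set 1426186_PM_a_at with it. The count of FGF probe sets called was 8 with the replicate block, with replicate 3 as a covariate, within replicates 1 and 5 and without each array in turn. Deviations from the group mean correlated between same-numbered arrays by 0.057, 0.56 and 0.15 for replicates 1, 3 and 5. The 2 arrays of replicate 3 thus shared part of their deviations. The main model did not take the numbers as pairs, and the block moved the count of all probe sets called to 6213, against 6204 without it. The count over genes was 3318 in all and 4 of the 10 members when adjusted over genes, and 2680 and 3 with the mean of the probe sets of a gene, since both count genes. With no fold limit 14749 probe sets were called, 13 of them FGF probe sets. The sign of small differences turned in Fgfr1 1436551_PM_at (−0.020 within replicates 1 and 5) and in Fgfr3 1421841_PM_at (−0.044 within replicates 1 and 5, −0.071 centred on the array median). The mean over the probe sets of a gene is a value of the gene and not of 1 probe set. It was −0.10 for Fgfr1, −0.031 for Fgfr3 and 0.79 for Fgfr2, where 1443211_PM_at alone had −0.17. With each array left out in turn, Fgf2 ranged from −0.098 to 0.016, Fgfr2 1443211_PM_at from −0.27 to 0.012, Fgfr3 1421841_PM_at from −0.082 to 0.067 and Fgfr3 1425796_PM_a_at from −0.16 to 0.024. Without dim probe sets 7 FGF probe sets were called, since Fgf5 1438883_PM_at was left out as dim. Centring on the array median moved all differences by −0.077.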
